A study of Mus musculus with 12 samples.

Results

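The unfolded protein response and endoplasmic reticulum (ER) folding genes examined here are 39 genes chosen by name, out of 18929 genes listed in the RNA-Seq tables of murine jejunal enteroids. They comprise 4 stress sensors, 5 transcription factors, 3 targets of the PERK-ATF4 branch, 11 chaperones and co-chaperones, 6 disulphide isomerases or oxidases, 8 genes of ER-associated degradation and 2 genes of translocation and export. All 39 were listed in both tables and all passed the filter on low counts in every comparison. The 39 genes and the further lists below were chosen with earlier results of these data known. Their shares, set beside those of all genes, are therefore descriptions and not a test.

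Enteroids are small epithelial organoids that grow from intestinal crypts in a gel. Control enteroids came from a villin-Cre mouse, Hdac1-deleted enteroids from a mouse with floxed Hdac1 and villin-Cre, and Hdac2-deleted enteroids from a mouse with floxed Hdac2 and villin-Cre, all of a mixed C57BL/6J, 129SV and CD1 background. The villin promoter drives Cre in the intestinal epithelium, and the methods name 1 mouse of each genotype as the source of crypts, so a difference of genotype cannot be told apart from one between single mice or their cultures. All cultures were kept for 5 days in ENR medium (EGF, Noggin and R-spondin), and 4 libraries per group were sequenced, which nothing states to be separate mice. The p-values therefore measure the spread between these libraries, which may be technical. HDAC1 and HDAC2 are class I deacetylases that remove acetyl groups from histones and other proteins, and the question was what the loss of each changes in the epithelium.

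The unfolded protein response is the reaction of a cell to proteins that fail to fold in the ER. IRE1 (Ern1, and Ern2 in mucus-producing epithelia) splices Xbp1 mRNA, PERK (Eif2ak3) phosphorylates the translation factor eIF2alpha so that ATF4 is translated, and ATF6 is cut in the Golgi to release a transcription factor. ATF6 and XBP1 act on chaperone and degradation genes, and ATF4 acts on genes of amino acid supply. Secretory cells of the intestine, goblet and Paneth cells above all, carry a high load of ER folding. Splicing of Xbp1, phosphorylation and cleavage are not seen in gene counts, so the values below are mRNA levels.

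Library depth ranged from 20693200 to 30658628 counts, and levels are given as CPM, the count per 1000000 counts of the library's normalized total. Hdac1 was at 87.5 to 94.4 CPM in the control libraries and at 3.37 to 5.09 CPM in the Hdac1-deleted libraries. Hdac2 was at 131.6 to 141.1 CPM in control and at 73.2 to 78.8 CPM in the Hdac2-deleted libraries, lower in each of them but well above the level of Hdac1 after its own deletion. Markers of fibroblasts, immune cells and endothelium were nearly absent, with a summed level of at most 0.727 CPM for the 4 of 8 listed, and enterocyte, stem, goblet and Paneth markers were present in each library.

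To show which regulatory sequences these genes carry, the 250 bases before each RefSeq start site (GRCm38.p6) were searched on both strands for 5 motifs. The set of RefSeq promoters used here held 33 of the 39 genes, with Ero1l listed as Ero1a. It lacked 6 of them (Ern2, Atf6, Creb3l1, Hyou1, Manf and Derl1), which were not searched. The ER stress response element (ERSE, CCAAT and CCACG with 9 free bases between them), to which ATF6 and XBP1 are known to bind with NF-Y, lay in 9 of 33 promoters (27.3%) against 0.13% of the 27025 genes with a promoter. Those 9 genes were Hspa5, Hsp90b1, Calr, Canx, Dnajc3, Creld2, Pdia6, Syvn1 and Derl3. The ERSE-II (ATTGG and CCACG with 1 free base between them) lay in Herpud1, against 0.037% of genes, and the XBP1 motif UPRE (TGACGTGG) lay in Sec24d, against 0.603%. The C/EBP-ATF response element (CARE, TGATG and AA with 1 free base between them), a site type used by ATF4, lay in Asns, Chac1 and Herpud1, which is 9.09% of these genes against 3.91% of all. The cAMP response element TGACGTCA lay in 0 of 33 promoters, against 1.77% of all. No match was shared by 2 motifs, and a match is a description of letters, not of binding. The genes were chosen by name for this response and the motifs are known ones of it, so these shares are descriptions and not a test.

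**Figure D1:**
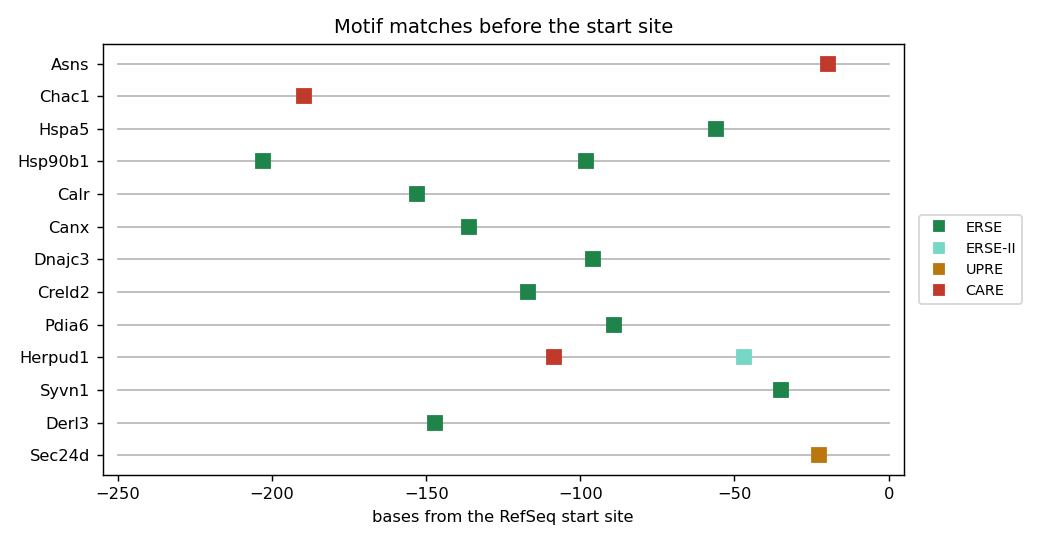
Position of each motif match (squares, coloured by motif) in the 250 bases before the RefSeq start site, in bases from the start, for the 13 genes that held one. Hsp90b1 held 2 ERSE matches, and Herpud1 held an ERSE-II and a CARE.

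The 220 bases before the start are printed for 8 of them, 5 with an ERSE and 3 with a CARE, because the results turn on folding genes and ATF4 targets. Capitals mark the matches, and each sequence is read 5′ to 3′ on the gene's strand, so that a match on the other strand reads as its reverse complement. Their positions were Hspa5 chr2:34771870-34772089 (plus strand), Hsp90b1 chr10:86705445-86705664 (minus strand), Calr chr8:84846932-84847151 (minus strand), Pdia6 chr12:17266369-17266588 (plus strand), Creld2 chr15:88819426-88819645 (plus strand), Herpud1 chr8:94386209-94386428 (plus strand), Asns chr6:7693210-7693429 (minus strand) and Chac1 chr2:119351022-119351241 (plus strand). The GENCODE annotation starts some of these genes earlier than RefSeq does, so that parts of the windows can lie in transcribed sequence.
Hspa5: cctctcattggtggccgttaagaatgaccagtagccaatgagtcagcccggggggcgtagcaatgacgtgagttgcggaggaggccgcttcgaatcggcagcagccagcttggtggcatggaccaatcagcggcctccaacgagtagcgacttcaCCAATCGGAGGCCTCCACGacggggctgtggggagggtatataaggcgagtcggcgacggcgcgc
Hsp90b1: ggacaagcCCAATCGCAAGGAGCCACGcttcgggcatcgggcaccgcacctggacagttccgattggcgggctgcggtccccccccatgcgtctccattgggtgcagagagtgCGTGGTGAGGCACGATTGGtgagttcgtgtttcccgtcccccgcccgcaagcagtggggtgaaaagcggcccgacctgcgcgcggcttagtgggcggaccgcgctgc
Calr: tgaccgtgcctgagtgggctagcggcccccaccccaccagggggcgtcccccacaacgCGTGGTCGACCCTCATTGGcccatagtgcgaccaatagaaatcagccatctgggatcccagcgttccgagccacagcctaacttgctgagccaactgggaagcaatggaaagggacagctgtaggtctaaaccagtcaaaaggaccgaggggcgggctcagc
Pdia6: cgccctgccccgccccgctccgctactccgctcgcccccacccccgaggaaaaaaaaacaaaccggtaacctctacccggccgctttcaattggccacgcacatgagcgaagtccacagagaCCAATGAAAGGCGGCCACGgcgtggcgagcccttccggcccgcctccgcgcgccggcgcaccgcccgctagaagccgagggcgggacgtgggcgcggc
Creld2: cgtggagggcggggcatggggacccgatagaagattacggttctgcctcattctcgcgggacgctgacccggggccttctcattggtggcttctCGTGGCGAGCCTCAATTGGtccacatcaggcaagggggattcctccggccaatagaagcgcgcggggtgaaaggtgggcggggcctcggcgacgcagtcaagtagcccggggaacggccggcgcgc
Herpud1: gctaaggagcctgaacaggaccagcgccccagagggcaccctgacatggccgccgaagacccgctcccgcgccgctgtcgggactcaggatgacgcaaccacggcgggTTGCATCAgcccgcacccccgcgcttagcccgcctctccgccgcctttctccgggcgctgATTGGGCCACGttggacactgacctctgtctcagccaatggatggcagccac
Asns: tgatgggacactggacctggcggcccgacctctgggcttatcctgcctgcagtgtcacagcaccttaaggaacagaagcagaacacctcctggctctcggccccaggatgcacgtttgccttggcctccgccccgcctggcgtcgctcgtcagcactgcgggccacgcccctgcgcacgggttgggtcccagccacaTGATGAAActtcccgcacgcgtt
Chac1: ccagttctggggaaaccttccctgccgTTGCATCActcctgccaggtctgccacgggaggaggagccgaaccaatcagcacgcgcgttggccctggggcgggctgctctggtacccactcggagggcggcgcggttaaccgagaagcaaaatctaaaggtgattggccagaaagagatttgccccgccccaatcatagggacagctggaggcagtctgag

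The ERSE of Hspa5 lay at bases -65 to -47 from the start, and that of Pdia6 at -98 to -80. Hsp90b1 held 1 match at -212 to -194 and 1 on the other strand at -107 to -89. The CARE of Asns lay at -23 to -16, close to the start, that of Chac1 at -193 to -186 and that of Herpud1 at -112 to -105. In Herpud1 the ERSE-II lay nearer the start, at -52 to -42.

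Per kilobase of exon, the median control level of the 39 genes was 27.2 CPM per kb, against 5.31 CPM per kb over all tested genes with a length. P4hb, a protein disulphide isomerase, was the highest at 690.0 CPM per kb, followed by Calr at 238.5. Ern1 at 4.77 CPM per kb was below the median of all genes. Derl3, a subunit of the degradation channel, was the lowest at 0.372 CPM per kb, and its fold changes have wide errors.

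Most of these genes rose in Hdac2-deleted enteroids, by small amounts, whereas in Hdac1-deleted enteroids 8 of 11 chaperones rose slightly and the 3 PERK-ATF4 targets (Asns, Chac1 and Trib3) fell. A gene is called changed where edgeR's quasi-likelihood F test gave it a Benjamini-Hochberg adjusted p that did not exceed 0.05. In Hdac1-deleted enteroids 29 of 39 changed, against 64.6% of the 14246 genes tested. Of these 18 were higher, against 32.7% of all genes, and 11 were lower, against 31.9%, and 4 changed by more than 2-fold, against 10.6%. In Hdac2-deleted enteroids 35 of 39 changed, against 62.3% of 14007 genes. Of these 32 were higher, against 31.4%, and 3 were lower, against 30.9%, while 0 changed by more than 2-fold, against 8.3%, the largest change being the -0.89 of Creb3l1 on the log2 scale. The median log2 fold change of the 39 genes was 0.07 in Hdac1-deleted and 0.23 in Hdac2-deleted enteroids, against -0.004 over all genes in both comparisons. The 2 comparisons share the same 4 control libraries.

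**Figure D2:**
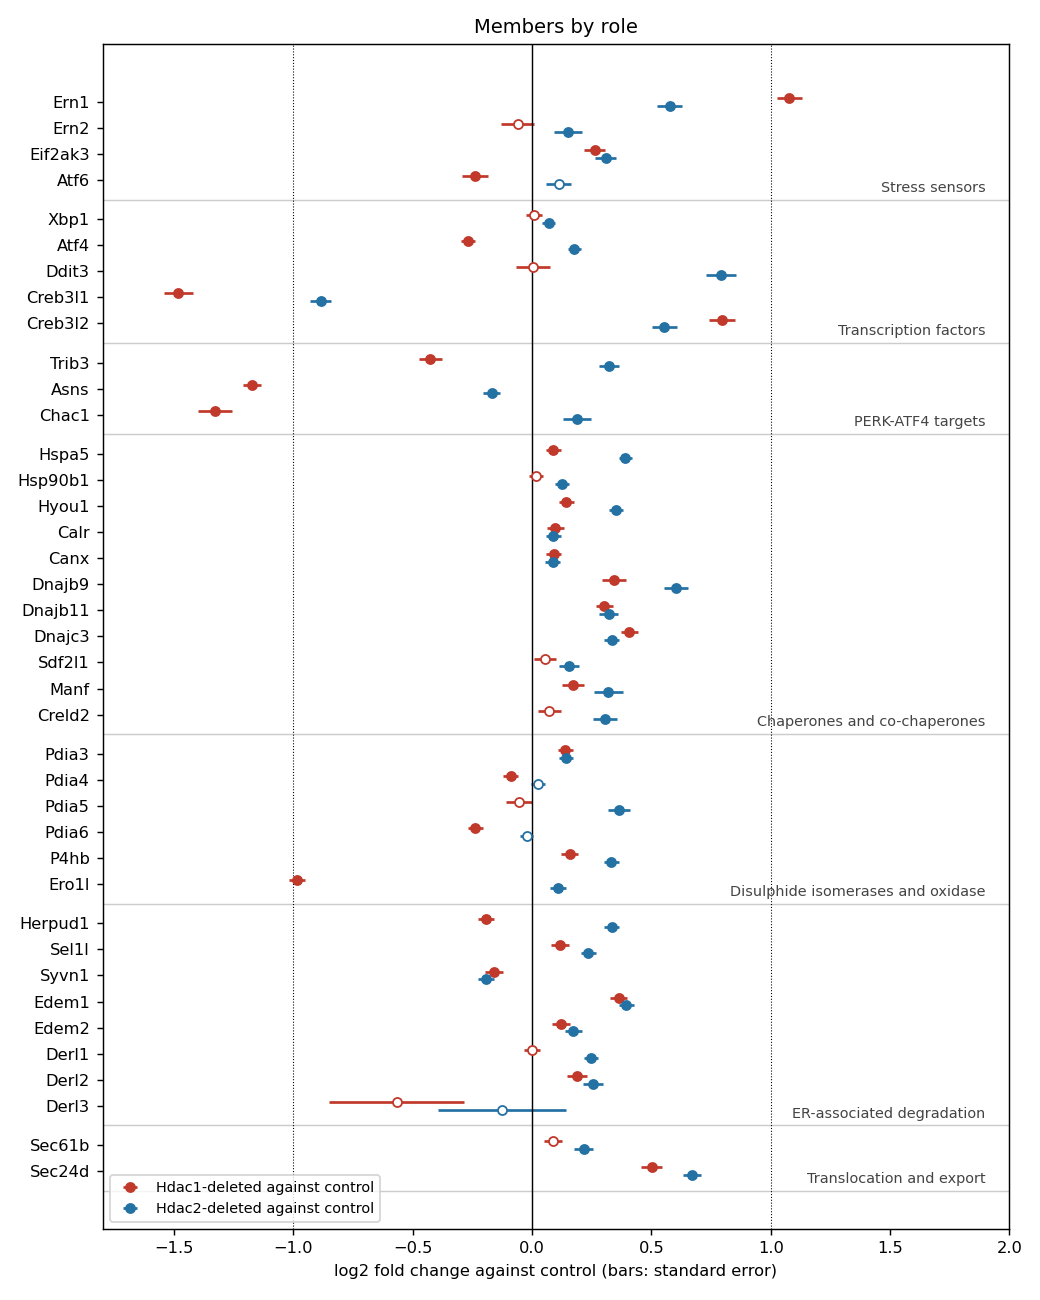
Log2 fold change against control for each of the 39 genes (points, with bars for the standard error), grouped by role, in Hdac1-deleted (red) and Hdac2-deleted (blue) enteroids. Filled points passed an adjusted p of 0.05, open points did not, and dotted lines mark 2-fold; Creb3l1, Asns and Chac1 lie past -1 in Hdac1-deleted enteroids and Ern1 past 1.

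Among the stress sensors, Ern1 moved most. Ern1, which encodes the kinase and RNase IRE1alpha, was at 35.5, 39.3, 40.7 and 40.5 CPM in control, at 83.9, 75.2, 79.2 and 88.4 CPM in Hdac1-deleted and at 55.7, 53.5, 61.5 and 60.7 CPM in Hdac2-deleted libraries. The 3 groups did not overlap. Its log2 fold change was 1.08 ± 0.05 (SE; adjusted p = 1.2e-12) in Hdac1-deleted and 0.58 ± 0.05 (adjusted p = 6.7e-09) in Hdac2-deleted enteroids.

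Eif2ak3, which encodes PERK, was at 31.6, 34.2, 33.9 and 32.5 CPM in control, 38.6, 40.5, 38.6 and 39.5 CPM in Hdac1-deleted and 42.1, 39.8, 40.6 and 40.0 CPM in Hdac2-deleted libraries. Both mutants lay above control without overlap, with log2 fold changes of 0.26 ± 0.04 (adjusted p = 2.8e-05) and 0.31 ± 0.04 (adjusted p = 2.6e-06). Atf6, the sensor that is itself a transcription factor, was at 62.3, 71.2, 77.4 and 70.1 CPM in control, 61.2, 60.0, 55.7 and 59.1 CPM in Hdac1-deleted and 77.6, 76.5, 74.1 and 73.2 CPM in Hdac2-deleted libraries. It fell by 0.24 ± 0.05 on the log2 scale with Hdac1 deleted (adjusted p = 0.00078), and its value of 0.11 ± 0.05 with Hdac2 deleted did not pass (adjusted p = 0.076). Without control replicate 3, the highest, the latter was 0.16 with an adjusted p of 0.0048.

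Ern2, the IRE1 form of mucus-producing epithelium, was at 19.3, 22.9, 22.8 and 21.7 CPM in control, 21.1, 17.9, 21.8 and 21.7 CPM in Hdac1-deleted and 23.2, 24.2, 25.3 and 22.9 CPM in Hdac2-deleted libraries. The groups overlapped with control in both cases. The value was -0.06 ± 0.07 with Hdac1 deleted (adjusted p = 0.46; 95% interval -0.23 to 0.11) and 0.15 ± 0.06 with Hdac2 deleted (adjusted p = 0.033). The latter call was lost without control replicate 1 (adjusted p = 0.14), control replicate 4 (0.071), Hdac2-deleted replicate 2 (0.075) or Hdac2-deleted replicate 3 (0.1), and in DESeq2 (0.069), with library size alone (0.095) and with all 12 libraries in the model (0.06).

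Of the transcription factors, the 2 Creb3-like genes moved in opposite directions. Creb3l1 encodes a membrane-bound factor (OASIS) that is cut in the Golgi like ATF6. Its level was 78.3, 81.3, 79.8 and 73.7 CPM in control, 28.1, 31.5, 27.2 and 24.4 CPM in Hdac1-deleted and 40.1, 45.4, 42.1 and 41.0 CPM in Hdac2-deleted libraries. The 3 groups stood apart, with log2 fold changes of -1.48 ± 0.06 (adjusted p = 4.5e-13) and -0.89 ± 0.04 (adjusted p = 2.8e-13).

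Creb3l2 encodes BBF2H7, a related factor known for its role in secretory cargo export. It was at 40.7, 42.8, 42.6 and 43.0 CPM in control, 79.8, 67.9, 66.4 and 77.0 CPM in Hdac1-deleted and 63.4, 56.3, 58.5 and 68.4 CPM in Hdac2-deleted libraries. Both mutants lay above control, overlapping each other, with log2 fold changes of 0.79 ± 0.05 (adjusted p = 2.5e-10) and 0.55 ± 0.05 (adjusted p = 1.2e-08).

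Atf4, the factor translated when eIF2alpha is phosphorylated, was at 260.2, 249.4, 254.0 and 257.7 CPM in control, 204.8, 210.1, 215.1 and 210.2 CPM in Hdac1-deleted and 283.0, 290.3, 291.5 and 282.0 CPM in Hdac2-deleted libraries. The mutants lay on either side of control, without overlap. It fell by 0.27 ± 0.03 on the log2 scale with Hdac1 deleted (adjusted p = 1.7e-07), and rose by 0.18 ± 0.03 with Hdac2 deleted (adjusted p = 1.1e-05).

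Ddit3 encodes CHOP, a factor of prolonged stress. It was at 12.1, 12.6, 11.96 and 13.4 CPM in control, 11.3, 11.7, 13.2 and 13.5 CPM in Hdac1-deleted and 20.1, 21.4, 23.5 and 20.9 CPM in Hdac2-deleted libraries. The Hdac2-deleted libraries stood apart, at a log2 fold change of 0.79 ± 0.06 (adjusted p = 4.5e-10), the largest rise of the 39 genes in that comparison. With Hdac1 deleted the value was 0.005 ± 0.071 (adjusted p = 0.96; 95% interval -0.17 to 0.18). A second annotated gene overlaps Ddit3 on the same strand, and how the counting treated shared reads is not given in the sources used here.

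Xbp1, whose mRNA IRE1 splices, was at 214.3, 202.7, 207.0 and 211.0 CPM in control, 196.7, 208.2, 213.2 and 214.0 CPM in Hdac1-deleted and 213.5, 217.5, 221.4 and 218.6 CPM in Hdac2-deleted libraries. Its values were 0.007 ± 0.033 (adjusted p = 0.86; 95% interval -0.07 to 0.09) and 0.07 ± 0.03 (adjusted p = 0.034). The call in Hdac2-deleted enteroids was lost without control replicate 2, 3 or 4 (adjusted p = 0.12, 0.098 and 0.087) and without Hdac2-deleted replicate 2, 3 or 4 (adjusted p = 0.066, 0.09 and 0.1), and also in DESeq2 (adjusted p = 0.066), without the filter (0.076), with library size alone (0.21) and with all 12 libraries in the model (0.091).

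**Figure D3:**
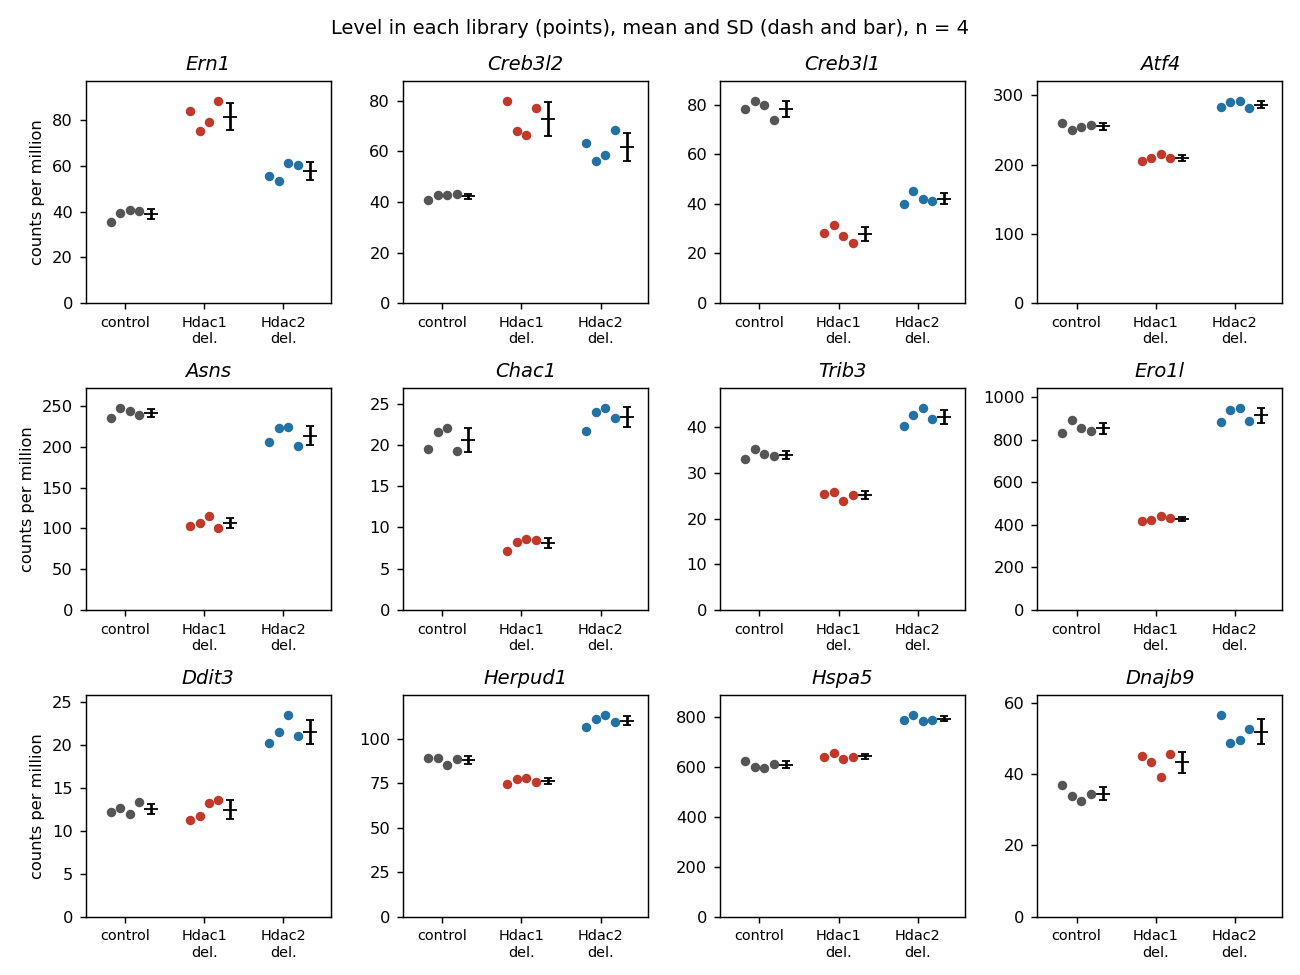
Level in CPM (vertical axis, from 0) of 12 genes in each of the 4 libraries per group (points), with the mean (dash) and SD (bar). Asns, Chac1, Trib3, Ero1l and Atf4 lie lower in Hdac1-deleted libraries than in control, and Ddit3 lies higher in the Hdac2-deleted libraries.

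All 3 targets of the PERK-ATF4 branch fell in Hdac1-deleted enteroids, where 31.9% of all genes were lower. Asns, asparagine synthetase, was at 235.6, 247.6, 244.4 and 238.9 CPM in control, 102.6, 106.1, 115.0 and 100.9 CPM in Hdac1-deleted and 206.4, 222.9, 224.2 and 201.1 CPM in Hdac2-deleted libraries. Its log2 fold changes were -1.17 ± 0.04 (adjusted p = 1.4e-15) and -0.17 ± 0.04 (adjusted p = 0.0003). The 3 groups did not overlap.

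Chac1, a glutathione-degrading enzyme induced by ATF4 and CHOP, was at 19.5, 21.6, 22 and 19.2 CPM in control, 7.20, 8.23, 8.54 and 8.51 CPM in Hdac1-deleted and 21.7, 24.02, 24.5 and 23.3 CPM in Hdac2-deleted libraries. The Hdac1-deleted libraries stood apart, at -1.33 ± 0.07 (adjusted p = 2.6e-12), and the Hdac2-deleted ones overlapped control, at 0.19 ± 0.06 (adjusted p = 0.0084). Trib3, a pseudokinase that acts back on ATF4, had 34.0 ± 0.926 CPM in control (SD, n = 4), 25.1 ± 0.875 CPM in Hdac1-deleted and 42.2 ± 1.63 CPM in Hdac2-deleted enteroids. Its log2 fold changes were -0.43 ± 0.05 (adjusted p = 1.2e-07) and 0.32 ± 0.04 (adjusted p = 1.4e-06), so that it moved in opposite directions in the mutants.

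Further ATF4 targets, mostly of amino acid supply, also fell with Hdac1 deleted, while Ddit3 (0.005 ± 0.071) did not pass there. Of 13 eIF2alpha kinases, phosphatases and ATF4 partners, 3 rose and 5 fell there, against 32.7% and 31.9% of all genes. Among these 13, Atf5 (0.025 ± 0.038) did not pass and Atf3 rose by 0.65 ± 0.08. Nupr1 and Ddit4 fell by 0.80 ± 0.06 and 0.79 ± 0.04. Atf5, Atf3, Nupr1 and Ddit4 were chosen from that list after their values were seen. Of 19 further genes listed as ATF4 targets for amino acid synthesis, import and related functions, 18 were tested. With Hdac1 deleted, 18 of 18 were lower, at a median log2 fold change of -1.06, and 9 fell by more than 2-fold. With Hdac2 deleted, 12 were lower and 3 higher, at a median of -0.34. The steepest falls with Hdac1 deleted were those of Vldlr (-2.08 ± 0.06), a lipoprotein receptor, Aldh1l2 (-1.98 ± 0.07), a mitochondrial folate enzyme, Psat1 (-1.75 ± 0.035), a serine synthesis enzyme, and Slc7a11 (-1.67 ± 0.10), the cystine importer. Slc7a11 rose by 0.52 with Hdac2 deleted, and Psat1 fell there by 1.17 ± 0.03. Cytosolic aminoacyl-tRNA synthetases are enzymes that charge tRNAs and are ATF4 targets in part. Of 20, 16 were lower and 1 higher with Hdac1 deleted (median -0.36), and 11 lower and 3 higher with Hdac2 deleted (median -0.085). Beside the counts of both lists, 31.9% of all genes were lower and 32.7% higher with Hdac1 deleted. With Hdac2 deleted these shares were 30.9% and 31.4%. Changes of more than 2-fold with Hdac1 deleted were seen in 10.6% of all genes.

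The summed level of 5 stem cell markers was 3552 to 3764 CPM in control, 2010 to 2343 CPM in Hdac1-deleted and 1682 to 1874 CPM in Hdac2-deleted libraries. In each mutant 4 of 6 cycling markers were lower, against 31.9% of all genes with Hdac1 deleted and 30.9% with Hdac2 deleted. Enterocyte markers summed to 8395 to 9013 CPM in control, 16670 to 18870 CPM in Hdac1-deleted and 13390 to 14930 CPM in Hdac2-deleted libraries. Their part in the results for ATF4 targets was not tested, and in bulk samples fewer cells of a type and less RNA per cell cannot be told apart.

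Of 11 chaperones and co-chaperones, 8 rose with Hdac1 deleted, at a median log2 fold change of 0.10, against 32.7% of all genes. With Hdac2 deleted 11 rose, at a median of 0.32, against 31.4% of all genes. Hspa5, which encodes the chief ER chaperone BiP, was at 624.0, 600.5, 594.5 and 612.0 CPM in control, 639.1, 655.4, 631.3 and 639.1 CPM in Hdac1-deleted and 787.5, 807.1, 783.3 and 788.1 CPM in Hdac2-deleted libraries. The groups did not overlap, with 0.39 ± 0.03 (adjusted p = 1.1e-10) for Hdac2 and 0.09 ± 0.03 (adjusted p = 0.017) for Hdac1. The smaller change lost its call without control replicate 2 (0.083; adjusted p = 0.0505), control replicate 3 (0.077; adjusted p = 0.059) or Hdac1-deleted replicate 2 (0.078; adjusted p = 0.059).

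The 3 J-domain proteins, which hand substrates to BiP, rose in both mutants. Of all genes, 32.7% rose with Hdac1 deleted and 31.4% with Hdac2 deleted. Dnajb9 had 34.4 ± 1.83 CPM in control, 43.3 ± 2.92 CPM in Hdac1-deleted and 51.9 ± 3.58 CPM in Hdac2-deleted enteroids (SD, n = 4), at 0.34 ± 0.05 and 0.60 ± 0.05. Dnajc3 rose by 0.41 ± 0.04 and 0.33 ± 0.03, and Dnajb11 by 0.30 ± 0.04 and 0.32 ± 0.04. Hyou1, a large HSP70-type chaperone, rose by 0.14 ± 0.03 and 0.35 ± 0.03. Sdf2l1, Hsp90b1 and Creld2 did not pass with Hdac1 deleted (0.055 ± 0.045, 0.02 ± 0.03 and 0.07 ± 0.05), and rose by 0.16 ± 0.04, 0.13 ± 0.03 and 0.30 ± 0.05 with Hdac2 deleted. The lectin chaperones Calr and Canx rose by 0.10 ± 0.03 and 0.09 ± 0.03 with Hdac1 deleted and by 0.09 ± 0.03 and 0.09 ± 0.03 with Hdac2 deleted. These small calls depended on single libraries: with Hdac1 deleted, Calr lost its call without control replicate 2 or 3 (adjusted p = 0.061 and 0.059) and Canx without control replicate 4 or Hdac1-deleted replicate 1 (adjusted p = 0.066 and 0.065). With Hdac2 deleted, Calr lost its call without control replicate 2, 3 or 4 or Hdac2-deleted replicate 1, and Canx without control replicate 3 or 4 or Hdac2-deleted replicate 1, with adjusted p-values of 0.06 to 0.095, and both lost it with library size alone (adjusted p = 0.086 and 0.096).

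Manf, a secreted protein of the stressed ER, rose by 0.17 ± 0.05 and 0.32 ± 0.06. The 9 genes with an ERSE, 7 of them chaperones or isomerases, had a median of 0.07 with Hdac1 deleted and 0.09 with Hdac2 deleted, against 0.10 and 0.28 for the 24 promoters without one. Goblet markers summed to 1917 to 2139 CPM in control, 2018 to 2164 CPM in Hdac1-deleted and 3111 to 3340 CPM in Hdac2-deleted libraries. In Hdac2-deleted enteroids 9 of 10 markers were higher, against 31.4% of all genes. In Hdac1-deleted ones 5 were higher and 2 lower, against 32.7% and 31.9%, so that the sum hides changes in both directions. The largest rises there were those of Retnlb (8.55 ± 0.17) and Zg16 (1.36 ± 0.05). Paneth markers summed to 2153 to 2517, 3119 to 3386 and 3409 to 3558 CPM, but of the 7 tested 2 were higher and 2 lower with Hdac1 deleted (median -0.003), Lyz1 rising by 1.26 ± 0.05 and Habp2 falling by 1.03 ± 0.07, and 5 were higher and 1 lower with Hdac2 deleted (median 0.24). Their part in the chaperone levels was not tested.

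Disulphide bonds are formed in the ER by the oxidase ERO1 and the isomerases it recharges, and this group split. Ero1l, which encodes that oxidase, was at 831.7, 891.4, 856.6 and 840.4 CPM in control, 420.2, 420.7, 441.4 and 430.6 CPM in Hdac1-deleted and 884.8, 938.2, 949.5 and 887.1 CPM in Hdac2-deleted libraries. The Hdac1-deleted libraries stood apart, at -0.99 ± 0.03 (adjusted p = 2.4e-15), a fold of 0.505, while the Hdac2-deleted ones overlapped control, at 0.11 ± 0.03 (adjusted p = 0.008). With library size alone the latter was 0.08 with an adjusted p of 0.051.

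P4hb and Pdia3 rose with Hdac1 deleted (0.16 ± 0.035 and 0.14 ± 0.03) and with Hdac2 deleted (0.33 ± 0.03 and 0.14 ± 0.03). Pdia6 fell by 0.24 ± 0.03 with Hdac1 deleted and was at -0.02 ± 0.03 with Hdac2 deleted (adjusted p = 0.48). Pdia4 fell by 0.09 ± 0.03 with Hdac1 deleted, a call lost without control replicate 4 (adjusted p = 0.054) or Hdac1-deleted replicate 4 (adjusted p = 0.065). Pdia5 was at -0.055 ± 0.053 with Hdac1 deleted and rose by 0.365 ± 0.046 with Hdac2 deleted.

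ER-associated degradation returns misfolded proteins to the cytosol for the proteasome. Of the 8 genes, 4 rose and 2 fell with Hdac1 deleted, and 6 rose and 1 fell with Hdac2 deleted. These are 50% higher and 25% lower, against 32.7% and 31.9% of all genes tested, and 75% higher and 12.5% lower, against 31.4% and 30.9%. Herpud1, a degradation scaffold with both an ERSE-II and a CARE in its promoter, had 88.2 ± 2.04 CPM in control, 76.5 ± 1.65 CPM in Hdac1-deleted and 110.4 ± 2.77 CPM in Hdac2-deleted enteroids (SD, n = 4), at -0.19 ± 0.035 (adjusted p = 7.8e-05) and 0.33 ± 0.03 (adjusted p = 1.5e-08). Edem1, a mannosidase-like lectin, rose by 0.36 ± 0.03 and 0.39 ± 0.03, and Edem2 by 0.12 ± 0.04 and 0.17 ± 0.04. The ubiquitin ligase gene Syvn1 fell by 0.16 ± 0.04 and 0.19 ± 0.03, whereas its partner Sel1l rose by 0.12 ± 0.04 and 0.24 ± 0.03.

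The Derlins form part of the channel. Derl2 rose by 0.19 ± 0.04 and 0.26 ± 0.04, and Derl1 rose by 0.25 ± 0.03 with Hdac2 deleted and was at -0.002 ± 0.034 with Hdac1 deleted (95% interval -0.085 to 0.081). Derl3 was at 0.324 to 0.954 CPM over all 12 libraries, with values of -0.57 ± 0.28 (adjusted p = 0.083) and -0.13 ± 0.27 (adjusted p = 0.7). Without Hdac1-deleted replicate 3 the first value was -0.91 with an adjusted p of 0.011. Of 26 other genes of the degradation system that were tested, 14 rose and 2 fell with Hdac1 deleted, against 32.7% and 31.9% of all genes. With Hdac2 deleted 16 rose and 1 fell, against 31.4% and 30.9%.

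Sec24d, which encodes a coat protein of COPII vesicles that carry cargo from the ER, rose by 0.50 ± 0.04 (adjusted p = 4.8e-09) and 0.67 ± 0.04 (adjusted p = 1.4e-12). Among 30 other genes of the COPII coat and cargo receptors, 22 rose and 3 fell with Hdac1 deleted (median 0.25), against 32.7% and 31.9% of all genes. With Hdac2 deleted 24 rose (median 0.26), against 31.4% of all genes, and the other 6 did not pass. Sec61b, a subunit of the translocation channel, rose by 0.22 ± 0.04 with Hdac2 deleted and was at 0.09 ± 0.04 with Hdac1 deleted (adjusted p = 0.057). The latter passed without control replicate 1 (0.11; adjusted p = 0.012) or Hdac1-deleted replicate 1 (0.11; adjusted p = 0.034), and with relative log expression factors (adjusted p = 0.049).

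Of 30 other ER folding enzymes tested, 11 rose and 13 fell with Hdac1 deleted, and 12 rose and 14 fell with Hdac2 deleted. For 22 genes of the translocon, signal recognition and signal peptidase, 3 rose and 5 fell with Hdac1 deleted and 7 rose and 1 fell with Hdac2 deleted, and for 10 oligosaccharyltransferase genes the counts were 1 and 3, and 4 and 1. Of 14 further sensors and factors, 6 rose and 4 fell with Hdac1 deleted and 5 rose and 2 fell with Hdac2 deleted. Of 13 eIF2alpha kinases, phosphatases and ATF4 partners, 3 rose and 5 fell, and 6 rose and 4 fell. These shares stand beside the 32.7% and 31.9% of all genes that rose and fell with Hdac1 deleted, and the 31.4% and 30.9% with Hdac2 deleted.

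**Figure D4:**
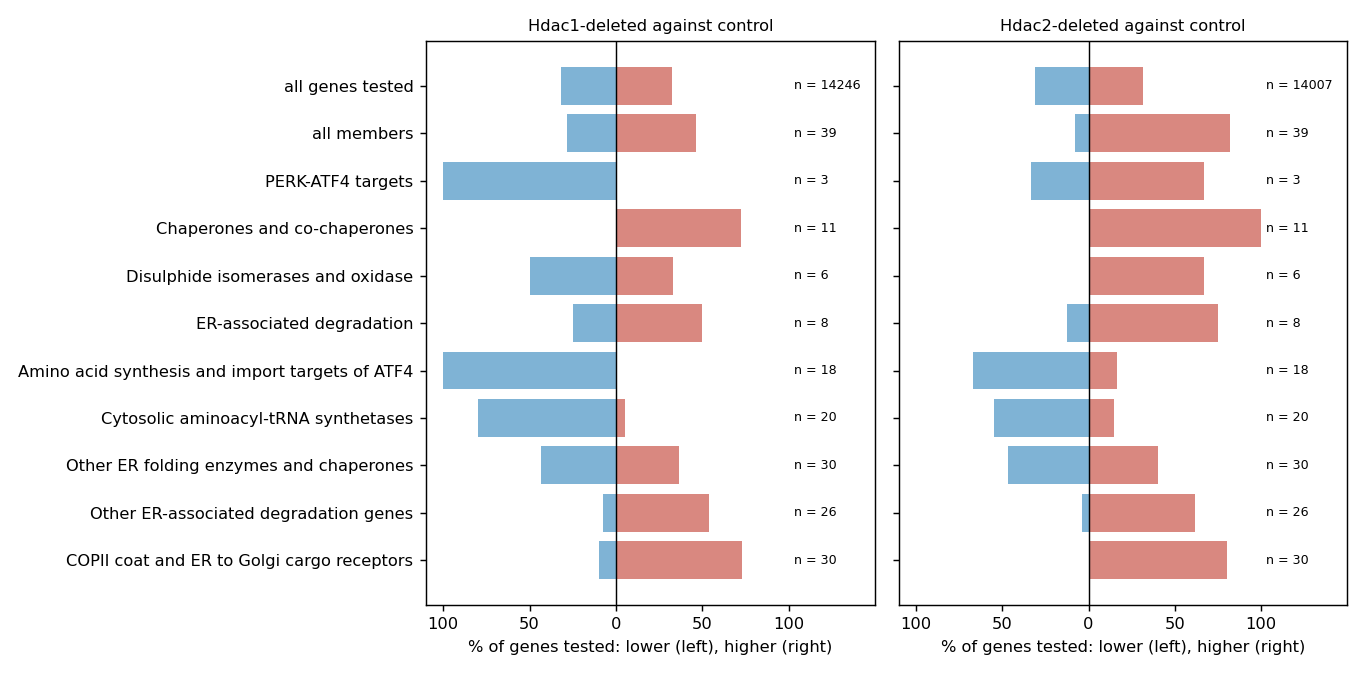
Share of tested genes that were higher (right, red) or lower (left, blue) at an adjusted p of 0.05, in percent, for all genes, for the 39 genes and 4 of their roles, and for 5 further lists, in each mutant against control; n is the number tested. The bar of amino acid synthesis and import targets of ATF4, a list that also holds related genes such as Vldlr, reaches 100% lower with Hdac1 deleted. There all genes have 31.9% lower.

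The 2 mutants were then set directly against each other, with all 12 libraries in the model. Of the 39 genes 26 differed, against 45.9% of the 14510 genes tested. 2 were higher in Hdac1-deleted than in Hdac2-deleted enteroids, Ern1 and Creb3l2, against 22.3% of all genes, and 24 were lower, against 23.7%. The median difference was -0.17 on the log2 scale, against 0.005 over all genes. 3 differed by more than 2-fold, against 5.62% of all genes, namely Chac1 (-1.52 ± 0.07, adjusted p = 6.4e-16), Ero1l (-1.095 ± 0.033, adjusted p = 1e-19) and Asns (-1.01 ± 0.04, adjusted p = 3.7e-16).

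After these came Ddit3 (-0.79 ± 0.07), Trib3 (-0.75 ± 0.04), Creb3l1 (-0.60 ± 0.06), Herpud1 (-0.53 ± 0.03), Atf4 (-0.45 ± 0.03) and Pdia5 (-0.42 ± 0.05). Atf6 followed at -0.35 ± 0.05 and Hspa5 at -0.30 ± 0.03. The differences of Ern1 and Creb3l2 were 0.50 ± 0.05 and 0.24 ± 0.06. For 13 genes the difference did not pass. Among them Calr, Canx and Pdia3 had 95% intervals of -0.064 to 0.079, -0.069 to 0.074 and -0.071 to 0.061 on the log2 scale, and Derl3 had -1.15 to 0.26. Edem1, Eif2ak3 and Dnajb11 had intervals of -0.105 to 0.036, -0.14 to 0.045 and -0.104 to 0.063.

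The weakest calls shifted with single libraries. Ern2 (-0.21) lost its call without Hdac1-deleted replicate 2 (-0.14; adjusted p = 0.07), and Manf (-0.15) lost it without Hdac1-deleted replicate 1 or 4 or Hdac2-deleted replicate 1 or 2, with adjusted p-values of 0.059 to 0.11, or with library size alone (adjusted p = 0.062). Dnajc3 (0.07) passed without control replicate 1 (adjusted p = 0.029) or Hdac1-deleted replicate 1 (adjusted p = 0.048), and with library size alone (adjusted p = 0.0092). Sdf2l1 (-0.10) passed without control replicate 3 (adjusted p = 0.047), control replicate 1 (adjusted p = 0.0497) or Hdac1-deleted replicate 3 (adjusted p = 0.02), and in the mutant libraries alone (adjusted p = 0.041).

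The list of ATF4 targets for amino acid synthesis, import and related functions separated the mutants in the same direction. Of its 18 tested genes, 17 were lower and 1 higher in Hdac1-deleted than in Hdac2-deleted enteroids, at a median of -0.60, with Slc7a11 (-2.19 ± 0.12) and Aldh1l2 (-1.60 ± 0.07) the most. Stc2, which encodes a secreted glycoprotein, had 91.8 ± 3.43 CPM in control, 59.7 ± 5.39 CPM in Hdac1-deleted and 122.9 ± 3.98 CPM in Hdac2-deleted enteroids (SD, n = 4). Of the 20 tRNA synthetases 15 were lower and 1 was higher, at a median of -0.30. Of 10 goblet markers 8 were lower in Hdac1-deleted than in Hdac2-deleted enteroids, and the other 2 did not pass. The part of goblet cells in these differences was not tested. Beside the counts of these lists, 23.7% of all genes were lower and 22.3% higher in Hdac1-deleted than in Hdac2-deleted enteroids.

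**Figure D5:**
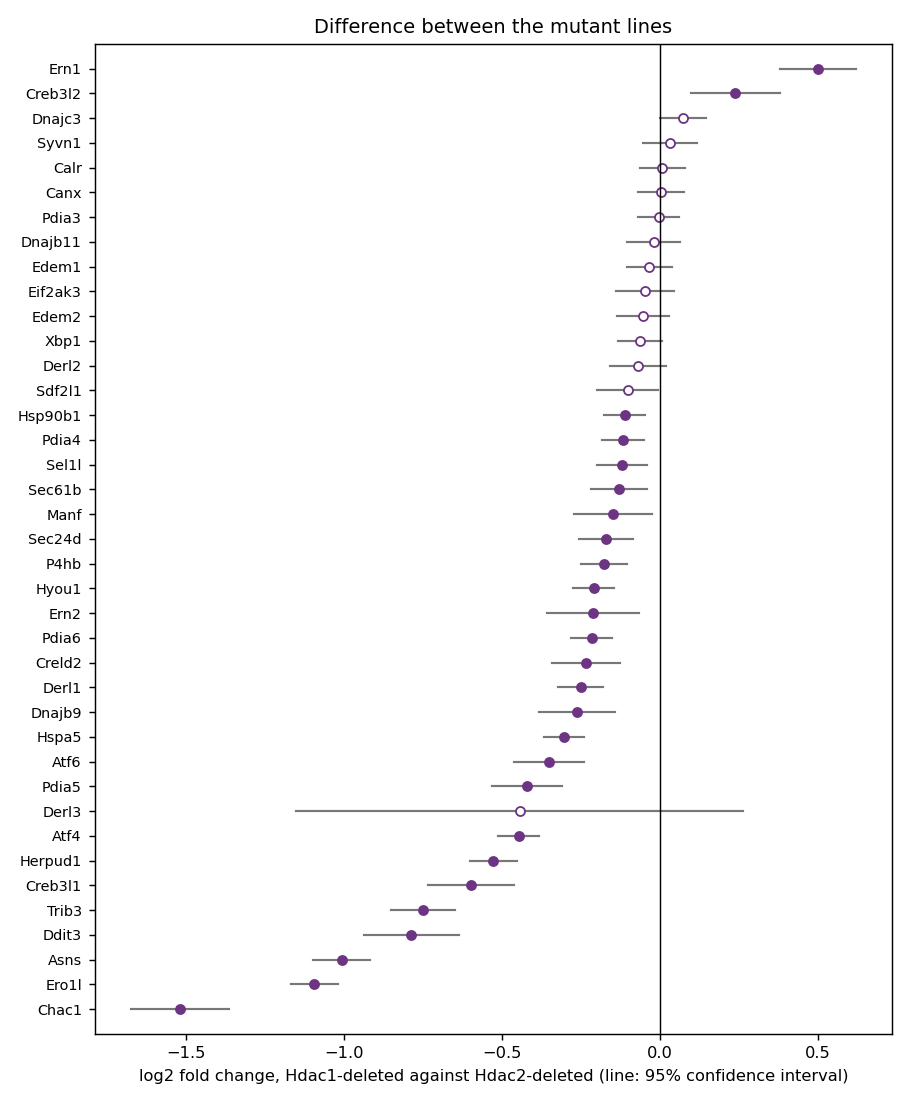
Log2 fold change of Hdac1-deleted against Hdac2-deleted enteroids for each of the 39 genes (points), with the 95% confidence interval (lines), ordered by value. Filled points passed an adjusted p of 0.05; Chac1, Ero1l and Asns lie lowest and Ern1 highest.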

How the data were processed

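Poly(A) RNA of enteroids was sequenced in 12 libraries, 4 each of control, Hdac1-deleted and Hdac2-deleted, as paired reads of 100 nucleotides from directional libraries. Per the submitters' processing notes, STAR 2.4.0f1 and bcl2fastq 1.8.4 were used with GRCm38, and the counting program is not given in the sources used here. The authors deposited 1 table per mutant with whole-number read counts per gene, unnormalized, listing genes whose counts sum to 10 or more (18676 and 18225 genes, 17972 in both). Also in the tables deposited by the authors were a normalized score per library, log2 fold change, log2 CPM and p-values of their own comparisons, none of which were used.

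Counts were tested with edgeR 4.0.16 in R 4.3.3 (quasi-likelihood F test, robust, TMM factors, filterByExpr, Benjamini-Hochberg adjustment over all genes tested). Each mutant was compared with control over 8 libraries, and the mutants with each other over all 12, on the genes in both tables. CPM uses the totals of those genes. Gene lengths and positions come from GENCODE M21 and promoters from RefSeq. Steps were tested on simulated data. Intervals use 95%. Alternatives were DESeq2 1.42.0, other scaling, no filter, other libraries in the fit, the replicate number as block, stricter thresholds and each library left out. All 39 genes could be named, with values in every library for genes past 2-fold, for the sensors and transcription factors and for Hspa5. Of other lists, at most 4 genes each per comparison, with the largest changes past 2-fold, were named. Exceptions were Atf3, Atf5, Ppp1r15a, Nupr1 and Ddit4, which were chosen after their values were seen. The genes and lists were chosen with earlier results of these data known.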

Additional observations from a re-analysis of the deposited data

Results flagged for a closer look

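Single libraries stood apart from the other 3 of their group in 6 of the 117 gene and group pairs tested with Dixon's limit, where chance gives about 1 in 20. Control replicate 1 was low for Creb3l2 (40.7 CPM, against 42.6 to 43.0) and high for Pdia3 (571.4 CPM, against 543.9 to 548.0) and Derl1 (156.8 CPM, against 148.5 to 149.4). Control replicate 3 was low for Herpud1 (85.1 CPM, against 88.8 to 89.4). Hdac2-deleted replicate 2 was high for Sdf2l1 (56.2 CPM, against 52.8 to 52.9), and Hdac1-deleted replicate 2 was high for Edem2 (78.7 CPM, against 74.0 to 74.8).

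For 26 of the 39 genes the 2 mutants differed by the direct test (log2 difference, Hdac1-deleted minus Hdac2-deleted). Of all genes tested, 45.9% did so. The positive differences were those of Ern1 (0.499) and Creb3l2 (0.238). Among sensors, factors and PERK-ATF4 targets the negative ones were Chac1 (-1.52), Asns (-1.008), Ddit3 (-0.788), Trib3 (-0.75), Creb3l1 (-0.598), Atf4 (-0.448), Atf6 (-0.353) and Ern2 (-0.213). Among chaperones they were Hspa5 (-0.304), Dnajb9 (-0.264), Creld2 (-0.234), Hyou1 (-0.211), Manf (-0.149) and Hsp90b1 (-0.113). In the disulphide group they were Ero1l (-1.095), Pdia5 (-0.422), Pdia6 (-0.217), P4hb (-0.178) and Pdia4 (-0.117). In degradation, translocation and export they were Herpud1 (-0.529), Derl1 (-0.252), Sec24d (-0.172), Sec61b (-0.131) and Sel1l (-0.122).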

How the results depend on the processing

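Under the alternatives tried (DESeq2, other scaling, no filter, a replicate block, other libraries in the fit and each library left out), 1740 of 1794 values of the 39 genes kept their side of the threshold, 42 were no longer changed and 12 became changed. Of the 1364 values for a gene changed in the reported comparison, 0 took the other direction, whereas 30 of the 418 values for a gene that was changed neither there nor under the alternative took the other sign. Requiring more than 2-fold left 4 changed genes with Hdac1 deleted (1 higher, 3 lower), 0 with Hdac2 deleted (0 higher, 0 lower) and 3 between the mutants (0 higher, 3 lower). With library size alone, 30 genes changed with Hdac2 deleted and 27 of them were higher, against 35 and 32 in the reported fit. The median log2 fold change of the 39 genes was then 0.206 rather than 0.235, and that of all genes -0.034 rather than -0.004. With each library left out, the changed genes numbered 27 to 30, 31 to 34 and 25 to 28. Same-numbered libraries of different groups correlated at -0.045 to 0.091 over all genes, and differently numbered ones at -0.091 to 0.127. These weak values cannot decide whether same-numbered libraries were prepared together. With the replicate block 29, 35 and 26 genes changed, as without it. The lists of amino acid and related ATF4 targets, tRNA synthetases and COPII genes were added to the alternatives after the data were seen. Genes of the first list that were lower with Hdac1 deleted numbered 18 with each library left out. Depth limits Derl3, at under 1 CPM in each library.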

Other observations

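Of the 13 eIF2alpha kinases, phosphatases and ATF4 partners, 7 were lower and 0 higher in Hdac1-deleted than in Hdac2-deleted enteroids. The shares over all genes were 23.7% and 22.3%. Among these 13, 2 genes chosen after their values were seen differed between the mutants like Ddit3. Atf5, a stress factor translated like ATF4, was at a log2 fold change of 0.025 ± 0.038 with Hdac1 deleted and rose by 0.71 ± 0.03 with Hdac2 deleted. Ppp1r15a, which encodes the eIF2alpha phosphatase subunit GADD34, was at -0.06 ± 0.07 and rose by 0.46 ± 0.07. Their differences between the mutants were -0.69 ± 0.03 and -0.52 ± 0.08 in the 12-library fit. Atf3, a stress factor of the same list also chosen after its values were seen, rose by 0.65 ± 0.08 and 0.95 ± 0.08 (edgeR adjusted p = 5.1e-07 and 1.2e-09). Nupr1 and Ddit4, of that list and chosen in the same way, fell in both mutants. Their log2 fold changes were -0.80 and -0.79 with Hdac1 deleted and -0.23 and -0.18 with Hdac2 deleted. Between the mutants they differed by -0.57 and -0.61.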
